A study of Canis lupus familiaris with 33 samples.

Results

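In the genomes of adult beagles, 646 regions of the autosomes carried a methylation peak in cerebellum, cerebrum, colon, kidney, mammary gland, ovary, pancreas, spleen and stomach, and none in liver and lung. They were found by merging the peaks of 11 tissue lists wherever these overlapped by at least 1 base, which gave 450791 union regions on autosomes 1 to 38, and by keeping the regions with a peak in each of 9 lists and no peak in the lists of liver and lung. The 646 regions were 0.143% of all union regions and 2.59% of the 24942 regions present in exactly 9 lists. The regions were chosen by the presence and absence of deposited peaks, so their number, their absence from liver and lung and the strength of their peaks are described here without a test.

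DNA methylation was profiled by MBD-seq, which sequences the DNA fragments that a methyl-CpG-binding protein domain holds on beads. All tissues came from healthy, untreated beagles, described in the labels as 1 male and 2 female dogs, although the library titles carried 4 animal identifiers. For each tissue there were 2 MBD libraries titled with different animals, 1 input library of DNA without capture, and 1 peak list that both MBD libraries named, so no spread between animals can be given and the tissue was the unit of comparison. Colon, mammary gland, ovary and stomach had 2 libraries labelled female, and the other 7 tissues, liver and lung among them, had 1 female and 1 male library. The input of liver and lung came from the animal titled jj8, as it did in cerebellum, cerebrum, colon, spleen and stomach, and the input of kidney, mammary gland, ovary and pancreas from another animal. The animal jj8 was labelled male in its MBD libraries and female in its input libraries.

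In vertebrates, methyl groups are placed mainly on the cytosine of CpG dinucleotides, and most CpGs of the genome carry them in most tissues. Unmethylated stretches are found mainly at CpG-rich promoters, and distal enhancers often lose methylation in the cell types that use them. Methyl-binding capture recovers fragments with several methylated CpGs most efficiently, and the washes used here kept only DNA eluted at 600 and 800 mM, so a region without a peak may be unmethylated, partly methylated or poor in CpGs. Liver is made mostly of hepatocytes, with sinusoidal endothelium and resident macrophages, and lung of alveolar and airway epithelium with a dense capillary bed and macrophages. In such bulk tissue, fewer cells with a methylated copy and a lower methylation in every cell cannot be told apart.

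The lists were of unequal length and strength. Liver had 306766 peaks, the fifth-longest list, and lung 271855, the eighth, while ovary had 370761, cerebellum 359065 and colon the fewest, 260977. Peak numbers that ran within each list had gaps, so some called peaks may have been left out of the deposited lists. What left the gaps is not stated. The gaps made up 11.2% of the numbers in liver and 12.8% in lung, inside the range of 10.7% to 15.7% of the other 9 lists. An absent peak is therefore a peak absent from the deposited list. The shortest peak was 182 bases long in liver and 210 in lung. The read depth behind the lists is unknown, and the number of lists limits the precision.

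The strength of a peak is given as its relative fold, the deposited fold enrichment of the peak divided by the median fold of its own list, so that 1 is a peak of average strength in that tissue. The region with the highest geometric mean of relative fold over the 9 lists lay on chromosome 18 at 34899656 to 34900005 (CanFam3.1, as are all positions here) and was 350 bases wide. Its relative fold was 0.790 in spleen, 1.12 in colon, 1.21 in ovary, 1.26 in kidney, 1.46 in pancreas, 1.49 in cerebrum, 1.56 in mammary gland, 1.78 in stomach and 1.91 in cerebellum. It exceeded the list median in 8 of the 9 tissues, and the nearest peaks of liver and lung were 5194 and 3755 bases away. The deposited folds behind these values ran from 5.15 in spleen to 15.5 in stomach.

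The next regions in strength were led by cerebellum or spleen. The second, on chromosome 3 at 7949279 to 7949902, ranged from 0.954 in colon to 2.0 in cerebellum, with a median of 1.33 over the 9 lists. The third, on chromosome 22 at 360333 to 360944, ranged from 0.680 in pancreas to 2.09 in spleen, with a median of 1.32. On chromosome 26 at 13192264 to 13192666, the relative fold was lowest in colon at 0.663 and highest in spleen at 1.74, with a median of 1.51. In each of these 3 regions a single list or 2 lists stayed below the list median and all others reached or exceeded it.

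The fifth region, on chromosome 4 at 24789934 to 24790283, ranged from 0.979 in colon to 1.67 in cerebellum with a median of 1.32. Its weakest list was the strongest weakest list of all 646 regions. The nearest liver peak lay 30336 bases from it and the nearest lung peak 23037 bases, so it stood in a stretch where neither list had a peak. The sixth region, on chromosome 5 at 87508832 to 87509336, ranged from 0.935 in mammary gland to 1.86 in ovary, and its peak summits in the 9 lists fell within 20 bases.

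A pair of strong regions lay on chromosome 37. That at 2339864 to 2340546 ranged from 0.726 in pancreas to 2.10 in cerebellum, and that at 4301137 to 4301496 from 0.703 in colon to 2.21 in cerebellum. A further region on chromosome 4, at 29168494 to 29169194, was highest in colon and stomach, at 1.98 and 1.97, followed by cerebellum at 1.5, and lowest in ovary at 0.775. The tenth, on chromosome 11 at 35088039 to 35088404, was highest in kidney at 1.56 and lowest in stomach at 0.905, and liver and lung had no peak within 16076 and 16094 bases. Across these 10 regions cerebellum held the highest value in 5, spleen in 2, and colon, kidney and ovary in 1 each.

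**Figure D1:**
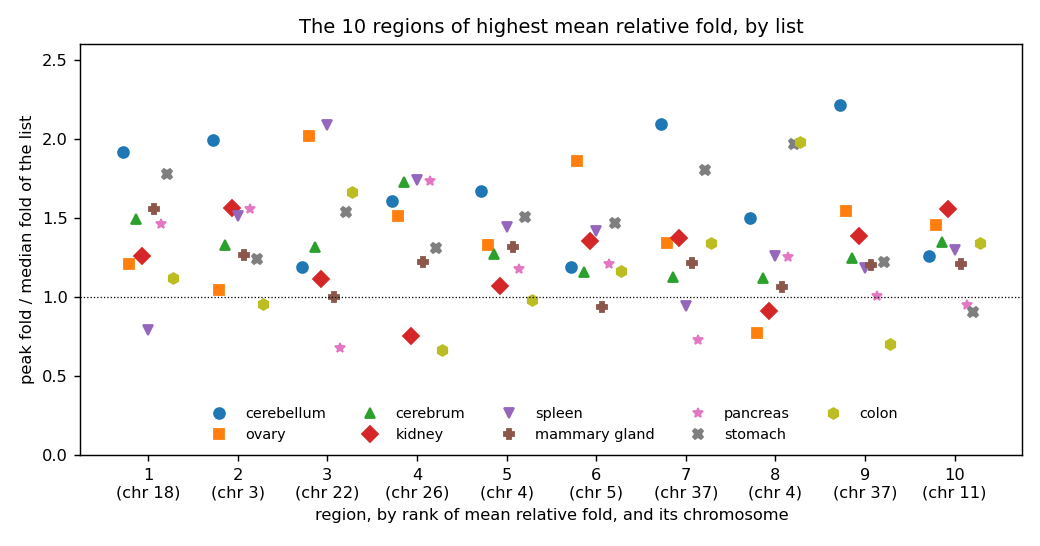
Relative fold (peak fold divided by the median fold of the list, linear axis) in each of the 9 lists for the 10 regions of highest mean, with the chromosome of each region below its rank; each point is 1 list and the dotted line marks the list median. Every region has 7 or 8 of its 9 points above the line, and the highest point is 2.21, for cerebellum in the ninth region.

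These 10 regions are the upper edge of a set made mostly of modest peaks. Over the 646 regions, the mean relative fold ran from 0.551 to 1.36 with a median of 0.881, and 121 regions (18.7%) exceeded 1. No region exceeded the list median in all 9 tissues, and 33 stayed below it in all 9. The weakest of the 9 peaks in a region had a median relative fold of 0.571. Regions present in all 11 lists, by contrast, had medians from 1.35 in pancreas to 1.49 in kidney and cerebrum.

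The strength of these regions differed by tissue. Cerebellum had the highest median relative fold, 1.19, with the middle 50% of regions between 0.912 and 1.43. Ovary followed at 1.10 (0.896 to 1.37), then cerebrum at 0.934 (0.772 to 1.12), kidney at 0.895 (0.750 to 1.07) and spleen at 0.877 (0.737 to 1.07). Mammary gland had 0.813 (0.680 to 0.970), pancreas 0.777 (0.648 to 0.928), stomach 0.776 (0.619 to 0.970) and colon 0.722 (0.604 to 0.876). Neighbours in this order had strongly overlapping ranges, and pancreas and stomach had nearly the same median. The mean over the 9 tissues was 0.899 ± 0.157 (SD, n = 9 lists).

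Set against their own lists, the peaks of these regions ranked above the middle in cerebellum and ovary alone. The median peak stood at percentile 62.0 of the cerebellum list and 58.4 of the ovary list, and between percentile 27.3 (colon) and 44.6 (cerebrum) in the other 7. The peak was stronger than the list median in 67.2% of the regions in cerebellum, 63.6% in ovary, 37.5% in cerebrum, 20.7% in mammary gland and 14.9% in colon. The lists of cerebellum and ovary were also the longest of the 11, and the part of list length in this order was not tested.

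A similar order held in the 24296 regions that were present in 9 lists and lacked any other pair. Their medians were 1.03 in cerebellum, 0.978 in ovary, 0.901 in cerebrum and 0.741 in colon. The regions lacking liver and lung were stronger than these by 0.20 (log2) in cerebellum, by 0.17 in ovary and by 0.08 in spleen. In the other 6 tissues the difference lay between −0.04 in colon and 0.05 in cerebrum. Regions lacking liver alone or lung alone had similar medians, 1.18 and 1.23 in cerebellum, 1.04 and 1.14 in ovary and 0.914 and 0.934 in spleen, so the higher strength was not particular to the regions lacking both. Among the 55 pairs of lists, the set lacking liver and lung ranked 6 for median strength, at 0.881 in a range from 0.772 to 0.995.

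**Figure D2:**
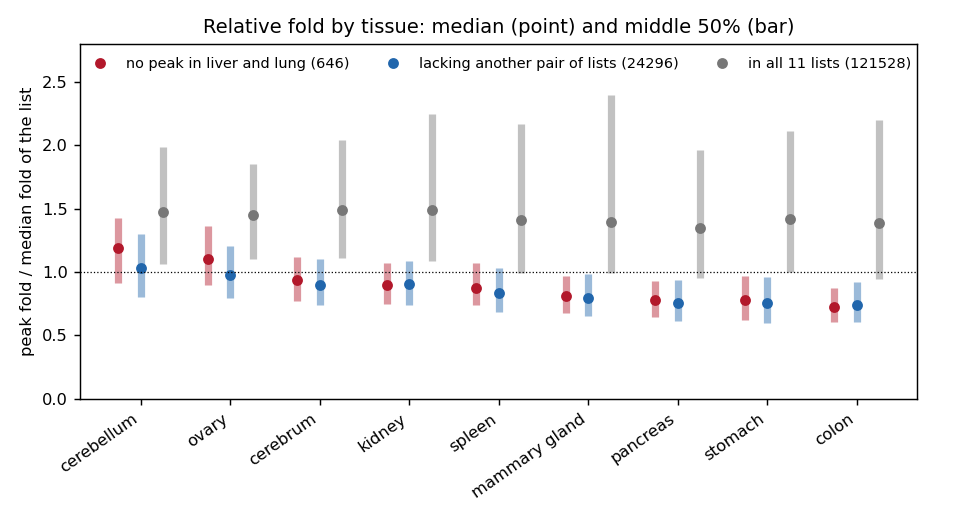
Relative fold (linear axis) by tissue for the regions without liver and lung peaks (red), the regions lacking another pair of lists (blue) and the regions in all 11 lists (grey); points are medians over regions and bars span the middle 50%. Red lies above blue most clearly in cerebellum and ovary, and both lie below grey in every tissue.

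Single regions varied more between tissues than the medians show. Within a region, the strongest list had a median of 2.39 times the relative fold of the weakest, with a range from 1.25 to 6.56. Cerebellum was the strongest list in 243 regions (37.6%) and ovary in 210 (32.5%). In the regions in all 11 lists these shares were 17.0% and 12.3%, counted over the same 9 tissues. They were not counted in the regions lacking another pair, liver alone or lung alone. In each of those sets cerebellum and ovary also had the highest median relative folds, in that order. The weakest list was colon in 166 regions (25.7%), stomach in 119 (18.4%) and pancreas in 107 (16.6%). Across the 646 regions, the log2 relative folds of the 36 pairs of lists had Pearson's r from −0.06 (ovary and stomach) to 0.38 (mammary gland and stomach). These points share the CpG content and mappability of their sequence, so the values describe the regions only.

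The median width of the regions was 349 bases, with the middle 50% between 324 and 411 bases and a range from 268 to 1232, against 365 bases for regions lacking another pair and 798 bases for regions in all 11 lists. The median was 347 bases over all union regions, 352 for regions lacking liver alone and 361 for those lacking lung alone, so the width was close to that of these sets. In all they covered 263 kb. In 624 of the 646 regions (96.6%) every list had a single peak. The summits of the 9 lists fell within a median of 50.5 bases of each other, and within 100 bases in 92.4% of the regions, against 80.0% of the regions lacking another pair. Overlapping peaks in regions this narrow leave little room for summits to lie apart, and the regions lacking another pair were wider. These shares are therefore not read as a trait of the regions.

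The widest regions held 2 peaks in at least 1 list. The widest, 1232 bases on chromosome 28 at 24883736 to 24884967, ranged in relative fold from 0.563 in pancreas to 1.26 in cerebellum. The next were 1166 bases on chromosome 18 at 21390740 to 21391905 and 1134 bases on chromosome 22 at 26701286 to 26702419. The latter was the strongest of the 5 widest, with a mean relative fold of 1.06 and a maximum of 1.84 in ovary. The other 2 were 1077 bases on chromosome 37 at 22505924 to 22507000 and 1017 bases on chromosome 7 at 73502212 to 73503228. The chromosome 7 region was highest in mammary gland, at 1.26, and liver and lung peaks began 285 and 264 bases from its edge.

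The regions just outside and just inside the threshold of 1 base were compared. Of 129135 regions formed by the 9 lists alone with a peak in each, 646 touched no liver or lung peak, and the smallest overlap in the others was 182 bases, the length of the shortest liver peak, seen in 11 regions. One such region just outside, on chromosome 6 at 24873331 to 24873632, had a mean relative fold of 1.09 in the 9 lists, and another, on chromosome 4 at 17372799 to 17373135, one of 0.845. The next of these 11 ties, of which the first 5 by position are given, lay on chromosome 4 at 71566076 to 71566411 (1.07) and 85040057 to 85041427 (0.718) and on chromosome 8 at 57804777 to 57805346 (0.909). Just inside, the region nearest to an absent list lay on chromosome 19 at 28173087 to 28173733, 86 bases from a lung peak and 206 from a liver peak, with a mean relative fold of 0.699. The next closest lay on chromosome 5 at 16257733 to 16258063, 105 bases from a liver peak, and on chromosome 23 at 8152246 to 8152734, 130 bases from a lung peak. They were followed by chromosome 27 at 14384910 to 14385322, 145 bases from a lung peak, and chromosome 26 at 32163678 to 32164467, 147 bases from a liver peak.

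The median distance was 3025 bases to a liver peak and 3513 to a lung peak, and 81.3% and 79.7% of the regions had one within 10 kb. The nearer of both lay at a median of 2601 bases, with 28.9% of the regions within 1 kb. In regions lacking another pair, the nearer absent list lay at 1762 bases, with 36.6% within 1 kb. Regions lacking liver alone lay at a median of 3204 bases from a liver peak, and those lacking lung alone at 3096 from a lung peak. The larger distance was thus not particular to the regions lacking both. From the same regions, the next peak of the other 9 lists was at a median of 1914 (ovary) to 3824 bases (colon). Liver and lung thus lay inside the range of the lists that had the peak. The 162 weakest regions, with mean relative folds up to 0.801, lay at a median of 1833 bases from a liver peak and 2330 from a lung peak. The 162 strongest, from 0.965 upward, lay at 4416 and 4108 bases. The distances did not rise steadily in between, with 3960 and 3916 bases in the next 161 regions above the weakest and 2902 and 3514 bases in the 161 after those.

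The regions were scattered along the autosomes. Every autosome held some, from 6 on chromosome 32 to 42 on chromosome 1. Per 1000 union regions there were 1.43 on all autosomes (95% Wilson interval 1.33 to 1.55), and single chromosomes ranged from 0.669 on chromosome 20 (0.352 to 1.27) and 0.701 on chromosome 24 (0.355 to 1.38) to 2.46 on chromosome 38 (1.44 to 4.21) and 2.71 on chromosome 35 (1.64 to 4.47). The intervals cover counting error only. The 12 smaller autosomes 27 to 38 held 151 of the regions, 1.85 per 1000 (1.58 to 2.17), and autosomes 1 to 26 held 495, or 1.34 per 1000 (1.23 to 1.46). Regions lacking another pair were slightly fewer on the smaller autosomes, with 52.2 per 1000 against 54.3. Regions lacking liver alone had 4.71 per 1000 on autosomes 27 to 38 and 4.14 on the others, and those lacking lung alone 10.7 and 9.47.

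**Figure D3:**
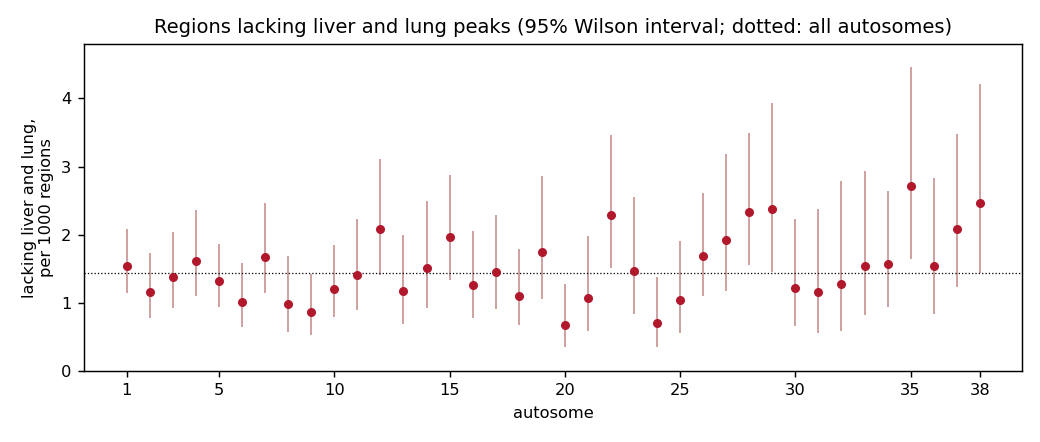
Regions lacking liver and lung peaks per 1000 union regions (linear axis) on each autosome, with 95% Wilson intervals for counting error; the dotted line is the value for all autosomes, 1.43. Chromosome 35 is highest at 2.71 and chromosome 20 lowest at 0.669, and most intervals include the dotted line.

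They did not form long blocks. A region had its next neighbour of the set at a median of 1.1 Mb, and the closest pair was 6506 bases apart. Of the 646 regions, 59 (9.13%, 95% Wilson interval 7.15% to 11.6%) had a neighbour within 100 kb. Being a neighbour is mutual, so the interval, which treats regions as independent, is likely too narrow for this share. Among the 13 pairs of lists with 500 to 800 regions of their own, this share ran from 6.01% to 18.4% with a median of 10.6%, and liver and lung ranked 9. No window of 100 kb held more than 2 of the regions, and 11 windows held 2. The first 5 of these by position were on chromosome 1 (93187168 to 93187805 and 93196543 to 93196928, 8737 bases apart), on chromosome 3 (85161323 to 85161685 and 85195321 to 85195656, 33635 bases apart), again on chromosome 3 (90746322 to 90746775 and 90796956 to 90797462, 50180 bases apart), on chromosome 9 (51826743 to 51827030 and 51878250 to 51879000, 51219 bases apart) and on chromosome 18 (35542283 to 35542608 and 35556457 to 35556784, 13848 bases apart). The chromosome 18 pair was the strongest of these 5, with mean relative folds of 1.10 and 0.958.

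The position along the chromosome was compared with that of all union regions. Of the regions, 24.3% lay within 5 Mb of either end of the stretch covered by peaks, against 23.1% of all union regions, 30.0% of regions in all 11 lists, 20.4% of regions lacking another pair, 19.1% of those lacking liver alone and 23.4% of those lacking lung alone. A median of 4 other union regions lay within 10 kb, against 6 around all union regions and 8 around regions in all 11 lists, so the surroundings were less dense in peaks. Regions lacking liver alone or lung alone also had a median of 4. The genes and the sequence at these positions were not analysed here.

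The number of regions was set beside that of all 55 pairs of lists. By count, liver and lung ranked 10, after 9 pairs of which 5 included cerebellum, led by cerebellum and ovary (1338) and cerebellum and cerebrum (1305). The expected number was fitted to how often each list was absent among the 24942 regions absent from exactly 2 lists. It was 358 for liver and lung if the 2 absences fell independently, so the 646 regions were 1.80 times that number. This ratio ranked 3 of 55, after cerebellum with cerebrum (2.24) and cerebellum with ovary (1.87), and the median pair had 0.946. The regions present in liver and lung alone numbered 906, or 4.21 times their expected 215, and ranked 5 of 55. The pair was chosen with these counts known.

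**Figure D4:**
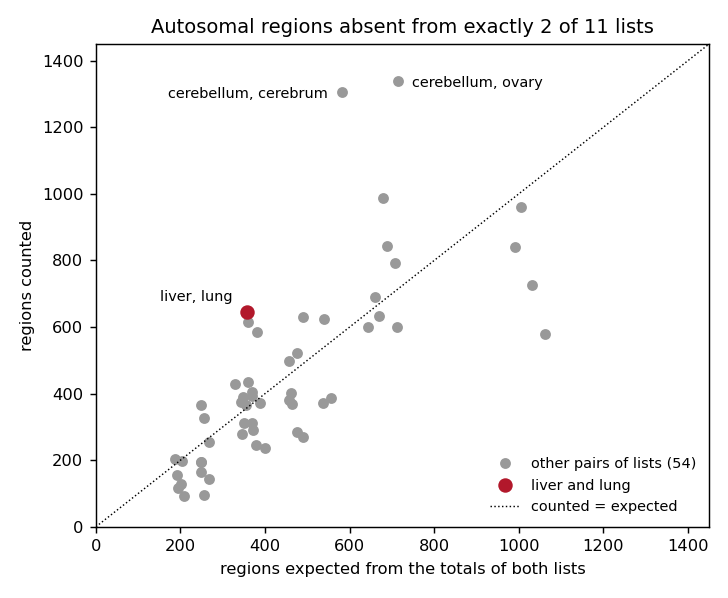
Autosomal regions absent from exactly 2 of the 11 lists (vertical axis, linear) against the number expected from the totals of both lists (horizontal axis, linear). These totals are each list's absences among the regions absent from exactly 2 lists. Each point is 1 of 55 pairs and the dotted line marks equality. Liver and lung (red) lie above the line at 646 counted and 358 expected, with 2 pairs of cerebellum farther above in ratio.

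The surroundings of the 646 regions were then described, without a test, since regions chosen for lacking 2 lists had a like difference around them in all 55 pairs. Within 10 kb lay 2679 other regions with a peak in at least 2 lists, next to 594 of the 646. Liver lacked a peak in 33.4% of them, against 30.0% of all such autosomal regions, and lung in 38.6% against 35.7%. These excesses of 3.41 and 2.90 percentage points were the highest of the 11 tissues. Spleen followed with 0.491, colon with 0.409 and mammary gland with 0.171, stomach was at 0.00531, and pancreas, kidney, cerebrum, ovary and cerebellum were at −0.759, −0.868, −1.75, −2.15 and −7.73. The mean of liver and lung exceeded that of the other 9 by 4.51 points. Liver and lung were absent together in 25.9% of the flanking regions against 22.6% of all, the largest such excess of the 55 pairs.

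Peak strength nearby had its lowest values, relative to all shared regions, in the same 2 tissues. Among 915 regions within 10 kb that had a peak in all 11 lists, the median log2 relative fold was 0.37 in liver against 0.54 over all 121528 shared regions, and 0.39 in lung against 0.54. These differences of −0.17 and −0.15 were the lowest of the 11. The other 9 ran from −0.07 in stomach and −0.06 in kidney to 0.09 in ovary and cerebellum. The mean of liver and lung differed from that of the other 9 by −0.15. Without the cerebellum, whose value stood far from the other 8, the difference in absence was 3.71 points. Among the 7 tissues with the input animal of liver and lung, the differences were 4.87 points for absence and −0.15 for strength. With wider flanks the difference in strength was smaller, −0.07 within 50 kb and −0.06 within 100 kb, and that in absence was 2.75 points within 100 kb. Within 1 kb, the difference in strength was −0.16 over 110 regions and that in absence 5.42 points over 316 regions.

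**Figure D5:**
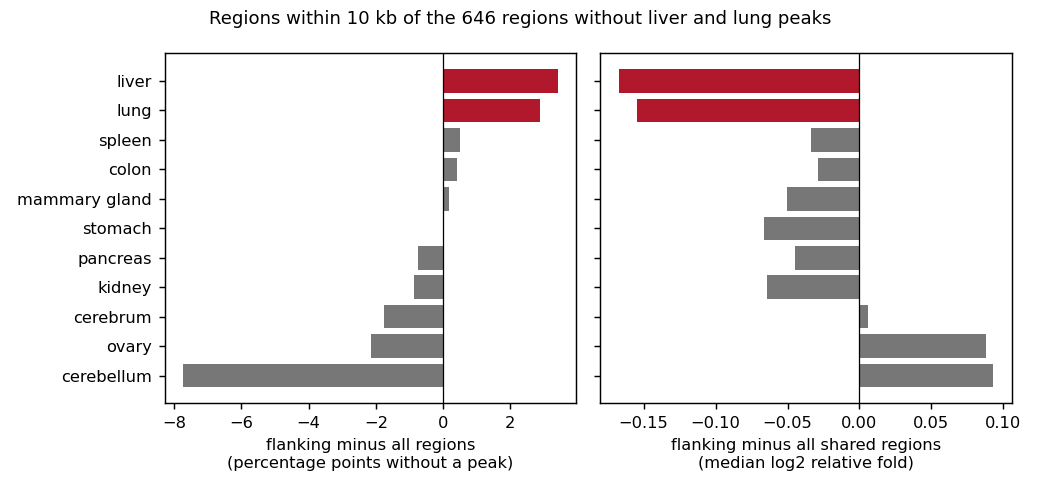
Regions within 10 kb of the 646 regions, by tissue (liver and lung in red, others in grey). Left, percentage points by which the share without a peak exceeds that of all autosomal regions, 3.41 in liver and −7.73 in cerebellum; right, the median log2 relative fold of regions in all 11 lists minus that of all such regions, −0.17 in liver and 0.09 in cerebellum.

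The same measure around the regions of every other pair, added after these values were seen, gave a difference of the same sign in every pair, so the sign is not particular to liver and lung. In each of the 55 pairs the excess of absence near the regions, over each list's own share on all autosomes, was larger in the lists that lacked the regions than in the other 9, by 1.41 to 21.5 points with a median of 4.68. Liver and lung ranked 30. For strength the difference was below 0 in every pair, from −0.33 to −0.01 with a median of −0.08, and liver and lung ranked 11 from the lowest. Both absent lists stood beyond all other 9 in 29 pairs for absence and in 23 for strength.

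Regions that lacked only 1 of these tissues were examined for the strength of the other, a comparison also added after the data were seen. In the 1914 regions lacking liver alone, lung had a median relative fold of 0.846, with the lowest peak at 0.374. Its median log2 relative fold was −0.24, against a mean of −0.14 ± 0.18 (SD, n = 9) over the sets lacking any of the other 9 lists alone. This difference of −0.10 was the lowest of the 10 lists present. In the 4367 regions lacking lung alone, liver had a median relative fold of 0.844 and a median log2 relative fold of −0.24, against −0.09 ± 0.19 (SD, n = 9), again the lowest of 10. Both differences were smaller than the SD over the sets, and among all 110 ordered pairs of lists they ranked 24 and 13 from the lowest, behind pairs such as stomach and pancreas (−0.37 for pancreas in regions lacking stomach).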

How the data were processed

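MBD-seq peak lists of 11 tissues, 1 per tissue, were analysed. The deposited lists had no header and were read by their narrow-peak columns and values. Their genome build was CanFam3.1, per the submitters' processing notes. The peak caller, the aligner, the filters and the way the libraries of a tissue were combined are not given in the sources used here. The fold enrichment (a ratio) and the −log10 p-value of each peak are the authors' deposited values, and the control of the fold is not stated. The deposited score column is the whole part of 10 times the −log10 p-value and was not used further. Several peaks of 1 list in a region were averaged.

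Fold was divided by the median of the whole list. Expected numbers per pair came from a product of 2 list terms. These were fitted to each list's absences among regions absent from exactly 2 lists. For regions present in exactly 2 lists, they were fitted to each list's presences among those. Liver and lung were set against the other 9 tissues in flanking regions by exact permutation over 55 choices, which is not read as a test because it leaves out how the regions were chosen. Regions and tests were chosen with earlier results of these data known. Named were the 10 strongest and 5 widest regions, the first 5 windows of 100 kb with most regions, and 5 regions either side of the overlap threshold (ties by position). Gene lists and gene positions were not used here. The functions were tested on simulated lists. Python 3.11.15, numpy 2.4.6, pandas 2.3.3, scipy 1.17.1 and matplotlib 3.10.9 were used.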

Additional observations from a re-analysis of the deposited data

Results flagged for a closer look

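The share of flanking regions without a peak, relative to all autosomal regions, was −7.73 percentage points in cerebellum, which stood apart from the other 8 tissues with a peak in the regions (next −2.15 in ovary). It was the 1 far value among 13 groups of 9 lists examined, where chance alone gives about 1 in 20 per group. With 13 groups, 1 such value is not read as unusual. The rule also required a cerebellum peak in every region of the set.

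Chromosome X, left out of the rule, held 27 regions with a peak in the same 9 lists and none in liver and lung. These were 27 of 21367 union regions, or 1.26 per 1000 (95% Wilson interval 0.869 to 1.84, counting error only), against 1.43 per 1000 on autosomes.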

How the results depend on the processing

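The number of regions stayed within 1.5 times 646 under 14 of 15 alternatives (459 to 939), including 754 with equal list sizes (260977 peaks each), 341 of which overlapped a region of the set, 593 with 50% coverage and 721 to 939 when 1 of the 9 lists was left out. With the 50% of each list of highest fold there were 300 regions, of median width 438 bases, and 0 of them belonged to the 646, since none of these exceeded the list median in all 9 lists. By ratio to the expected number, liver and lung then ranked 2, and ranked 1 with equal list sizes. The median relative fold stayed between 0.794 (on the −log10 p scale) and 0.903. The share with a neighbour was 0% within 1 kb, 0.619% within 10 kb and 47.4% within 1 Mb.

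The flanking differences had the same sign around the regions of all 55 pairs, so neither their sign nor an exact permutation of the tissue names (p = 0.0909 for absence, 0.0364 for strength, 0.0909 and 0.0727 adjusted over both) is a test of liver and lung. For absence the difference was 5.42 points within 1 kb, 4.37 with the 50% of highest fold and 3.71 (without cerebellum) to 4.76 without 1 list in turn, and it fell to 3.49 points within 50 kb and 2.75 within 100 kb. For strength it was −0.16 within 1 kb, −0.07 within 50 kb, −0.06 within 100 kb, and −0.16 to −0.14 without 1 list. No paired analysis was possible because each tissue had 1 list for both libraries. Distances to gene starts were not run. Read depth, and so the weakest methylation that would give a liver or lung peak, is unknown.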
